A study of Drosophila melanogaster with 14 samples.

Results

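The 126 genes described here read at least 2.99-fold higher in RNA recovered with a tagged poly(A)-binding protein than in either kind of whole fly head, while the 2 kinds of head differed by at most 0.5 on the log2 scale. They were selected on those measured differences, out of 10843 genes with a probe set of their own (12442 such probe sets). Differences are between group means of log2(signal + 32), after the arrays were set to equal trimmed means. The 2.99-fold limit and the head limit of 0.5 hold on that scale. In all, 131 probe sets met these limits. Of 10 genes that the rule named to leave out, 5 had met the limits (CarT, Hsp26, Rbp9, eya and gl), which leaves 126 probe sets of 126 genes. All 126 matched a gene of the RefSeq table. The table calls 125 protein-coding and 1, asRNA:CR43468, an antisense RNA, 81 carry a gene symbol and 45 only a CG or CR number.

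The study tagged messenger RNA of the outer photoreceptors of the Drosophila eye. The 14 arrays held 3 groups: 6 of heads from the wild-type strain Canton-S, 4 of heads from flies with the genotype Rh1-GAL4/P{UAS-dPABP-FLAG}, and 4 of the anti-FLAG immunoprecipitate (IP) from heads of that same genotype. Rh1-GAL4 drives expression in photoreceptors R1 to R6, and the UAS transgene carries a FLAG-tagged poly(A)-binding protein (PABP), which some labels write as hPABP. The Canton-S heads (below, CS heads) carry neither transgene, so all comparisons with them cross genotypes. Each head sample pooled about 100 heads and each IP about 200, and no age of the flies is given in the sources used here. Heads for the IP were fixed in formaldehyde and sonicated, while the whole-head RNA was extracted directly, so fixation and recovery differ between IP and heads and cannot be told apart from the cell type. Nothing says that the samples of a group came from separate cultures, so their spread may be technical.

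PABP binds the poly(A) tail of messenger RNA in the cytoplasm. An antibody to a tagged form made in a single cell type recovers messages of that cell type together with RNA that binds nonspecifically. A message can therefore be enriched in the precipitate without any difference between the heads of wild-type and transgenic flies. Outer photoreceptors are known for the rhabdomere, a stack of microvilli packed with visual pigment and built on actin, and for heavy membrane traffic. In bulk RNA, fewer cells of a type and less RNA per cell cannot be told apart.

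The arrays of a group were alike in the heads and less so in the IP. Correlations between arrays over all probe sets ran from 0.988 to 0.996 among CS heads, from 0.990 to 0.996 among Rh1 heads and from 0.909 to 0.985 among IPs. IP replicates 2 and 4 stood apart by the ratio of 5′ to 3′ control probe sets. For eIF-4a it was 0.0284 and 0.0432 in these arrays, 0.531 and 0.209 in IP replicates 1 and 3, and 0.444 to 0.678 in the 10 head arrays. For GAPDH it was 0.202, 0.0248, 0.169 and 0.0093 in IP replicates 1 to 4 and 0.291 to 0.541 in the heads. The part of this 5′ signal in the results below was not tested, and results with and without these 2 arrays are given.

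Each limit alone was passed by few or by most probe sets of the array. The IP was at least 2.99-fold above the Rh1 heads in 1.74% of the single-gene probe sets, above the CS heads in 2.58% and above both in 1.45%. The head groups lay within 0.5 of each other in 92.5%, and the whole rule was met by 1.05%. These shares describe the selection and are no result. Just inside the limit were CG7149, whose smaller log2 difference was 1.581, fd19B with 1.586 and Jasper with 1.591. Just outside were CG2608 (1.578), maf-S (1.568) and CSN8 (1.564). The head limit just kept tadr, 0.50 lower in Rh1 heads, and CG43798, 0.48 higher, and it just left out Arpc2 (0.50) and CAP (0.51).

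**Figure D1:**
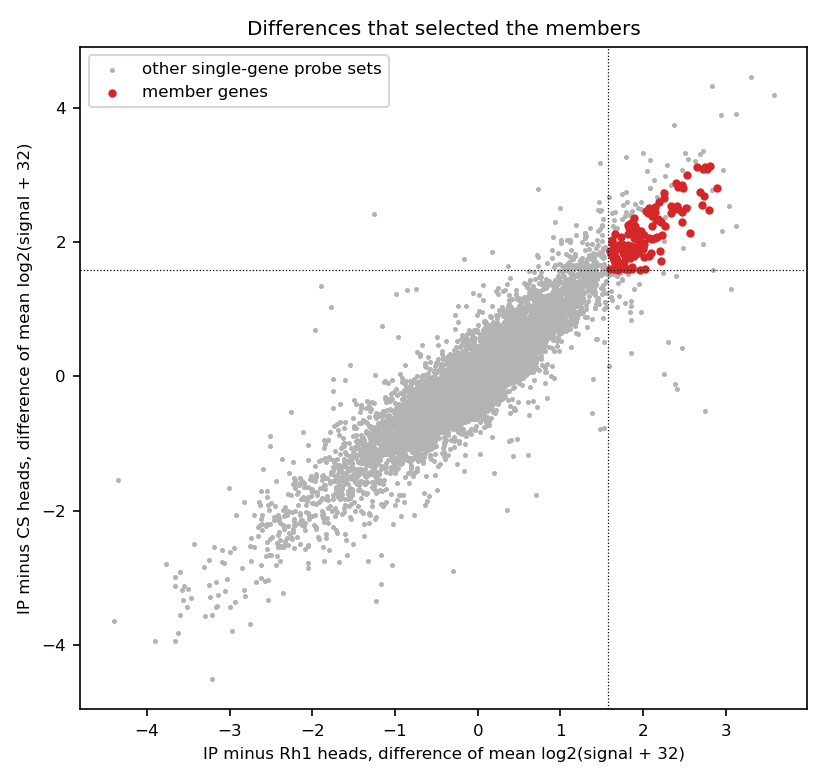
Each point is a single-gene probe set, with the IP minus Rh1 heads difference on the x axis and the IP minus CS heads difference on the y axis, both as differences of group means of log2(signal + 32). The 126 member genes (red) lie in the upper right corner beyond the dotted lines that mark the 2.99-fold limit, and the grey points there differ by more than 0.5 between the head groups or belong to the genes left out.

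The members' median signal was 235 in CS heads, 251 in Rh1 heads and 1092 in the IP, against 195 in each of the 3 groups over all single-gene probe sets. The median member stood at percentile 56.6 of signals in CS heads and at percentile 93.1 in the IP. Array signals depend on the probes as well as on the RNA, so ranks of signal do not rank expression, and the higher rank of members in the IP follows from the rule. In CS heads 27 members read under 100 and 7 over 1000. In the IP none of the 126 read under 100 and 71 read over 1000. IP means ran from 143 for CG12112 to 7059 for CG13364, whereas CS means ran from 9.22 for CG43798 to 1994 for CG13364. Of the 126, 116 passed a filter at the 30th percentile of mean signal and 10 did not.

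The median member was 1.95 higher in the IP than in Rh1 heads and 2.05 higher than in CS heads, against 0.05 and 0.00 over all probe sets. The largest differences were 2.89 from Rh1 heads and 3.13 from CS heads, and 46 members were at least 2 above both. Every IP array exceeded every head array for 125 members, against 13.9% of all single-gene probe sets. The exception was CG9427, whose IP replicate 4 read 655 against a highest CS value of 692. Within the window that the rule allowed, 79 members were higher in Rh1 heads than in CS heads and 47 lower. That is 62.7% higher, against 46.8% over all probe sets, with medians of 0.09 and −0.02. The medians against heads and the separation of IP from head arrays follow from the rule. The difference between the heads was also used by the rule, and the 46.8% includes probe sets outside the window. Nothing is read from any of these.

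**Figure D2:**
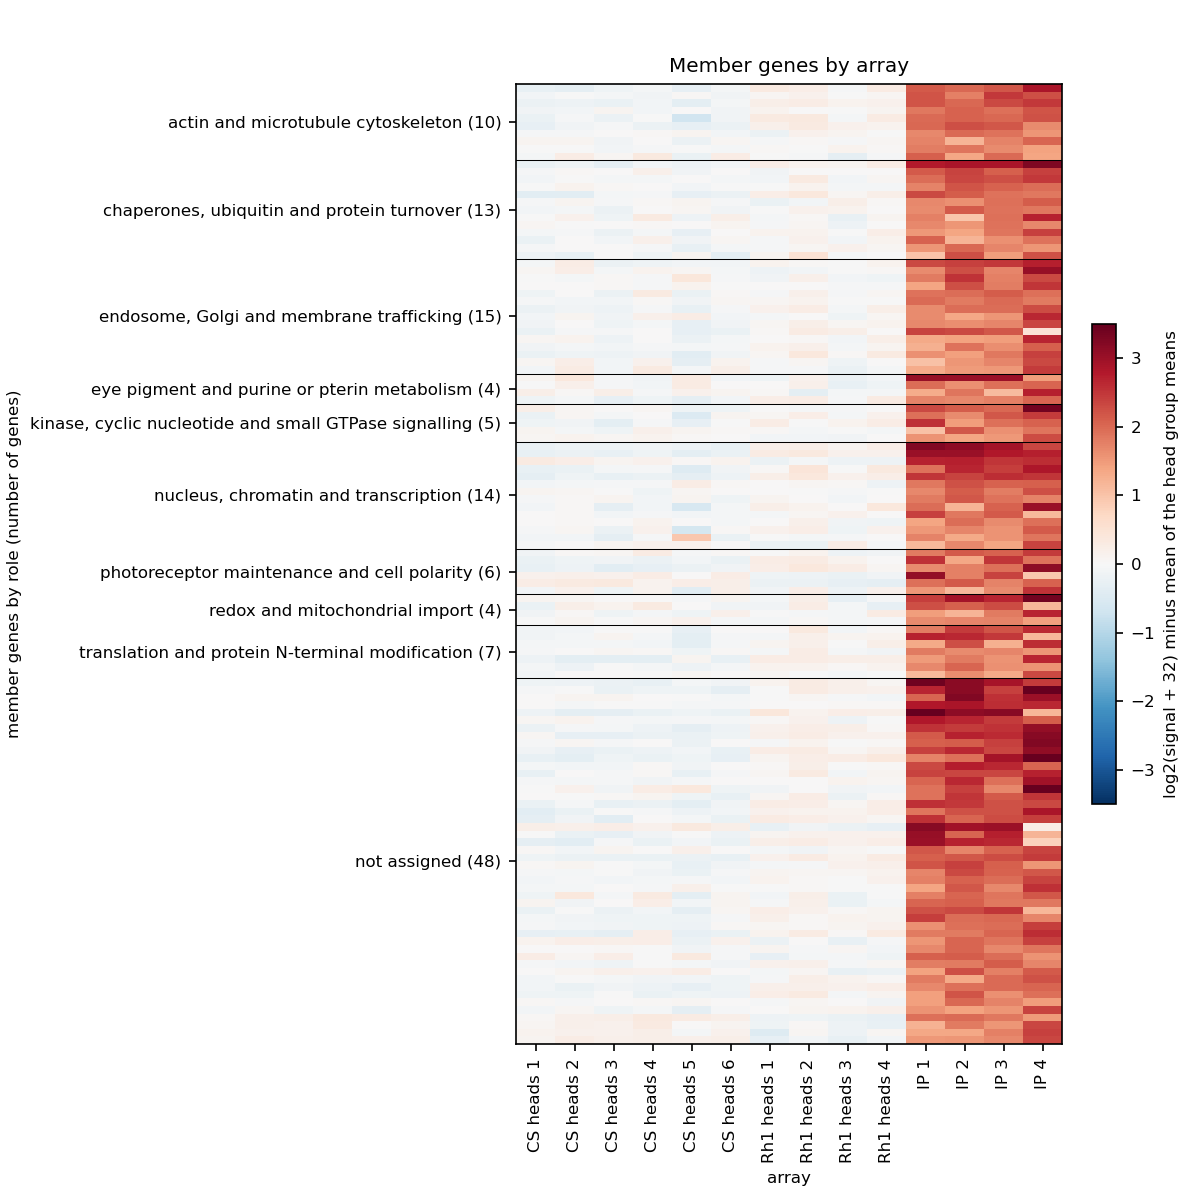
Rows are the 126 member genes grouped by role, columns the 14 arrays, and colour is log2(signal + 32) minus the mean of the 2 head group means. The 10 head columns are pale and the 4 IP columns red, and IP replicate 4 is the most uneven of the 4, from 0.27 to 3.97.

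Holding out an IP array while the limits are applied describes how far the IP arrays repeat each other. With IP replicate 1 held out, 142 genes met the limits on the other 3, and in replicate 1 83 of these (58.5%) again lay 2.99-fold above both head means. Over all probe sets replicate 1 alone was that high in 1.46%. With replicate 2 held out it was 85 of 129 (65.9%, against 1.44%), with replicate 3 101 of 129 (78.3%, against 1.55%), and with replicate 4 74 of 109 (67.9%, against 3.28%). In the held-out array 141 of 142, 129 of 129, 129 of 129 and 106 of 109 genes lay above both head means. The median held-out differences from Rh1 heads were 1.71, 1.91, 1.90 and 2.08, and those from CS heads 1.81, 2.04, 2.02 and 2.10. The head arrays were the same in each of these comparisons, and the rule was chosen with earlier results of these data known. The held-out readings are therefore not independent of the choice and are no test of the genes.

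The IP arrays are the ones the rule used, and a rule on their mean can favour genes with a wide spread between them, so the spreads are given as a description. The median SD across the 4 IP arrays was 0.355 for members and 0.205 for all single-gene probe sets (log2 scale). In the heads it was about the same for both, 0.100 and 0.094 over the 4 Rh1 arrays and 0.098 and 0.094 over the 6 CS arrays. IP replicate 4 was the highest of the 4 for 68 members (54.0%, against 55.2% of all probe sets) and the lowest for 31 (24.6%, against 21.0%). It was the highest for 45 of the 63 dimmer members and for 23 of the 63 brighter ones. At least 1 below the mean of replicates 1 to 3 were 11 members, 9 of them with a mean IP signal of at least 1000. These were CG14401, CG5196, CG8757, CG9427, GstE3, Spt3, Tsp42Eo, dlg1, mxt, p47 and se. At least 1 above it were 15 members, none with an IP signal of 1000 or more, among them kar, lz, Patj, insc and mop. Neither these counts nor the split by brightness were made over all probe sets. Whether they are particular to the members was not tested. Replicates 2 and 4, the arrays with little 5′ control signal, both lay above replicates 1 and 3 for 41 members (32.5%, against 46.8% of all probe sets) and both below for 11 (8.73%, against 13.4%).

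**Figure D3:**
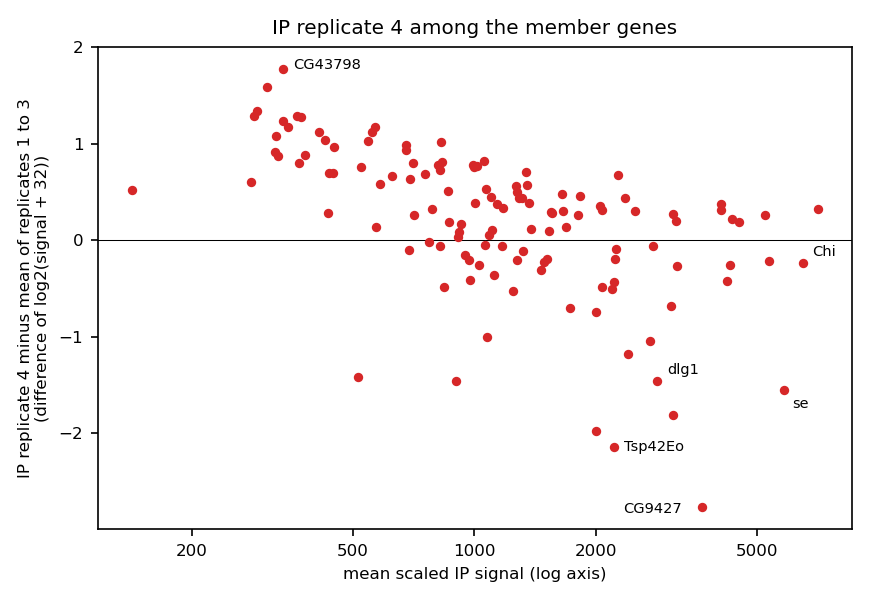
Each point is a member gene, with its mean IP signal on a log x axis and, on the y axis, IP replicate 4 minus the mean of IP replicates 1 to 3 in log2(signal + 32). Dim members lie mostly above 0, and the lowest point is CG9427.

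The genes are described below by role. Roles were assigned to 78 members in 9 groups after the values had been seen, and 48 members have none, so the groups order the description and support nothing. Values are scaled signals. For CS heads they are the lowest, median and highest of 6 arrays. For Rh1 heads and IP they are those of replicates 1 to 4 in order. Signals of different genes come from different probes, so their order is not an order of expression. Where a gene has further probe sets, the value given is that of the probe set that met the rule, and for spir, dlg1, stv, Snx17, RapGAP1, Tif-IA and Sh3beta a further probe set was lower in the IP than in both heads.

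Eye colour is made by 2 pigment classes in the fly, the red drosopterins, derived from guanosine triphosphate through pterins, and the brown ommochromes, derived from tryptophan. Of the 4 members in this pathway or beside it, the one with the largest difference was se (sepia), which encodes an enzyme of drosopterin synthesis. It read 763, 839.8 and 1084 in CS heads, 738, 915, 714 and 777 in Rh1 heads, and 7089, 6962, 6837 and 2357 in the IP. Replicates 1 to 3 of the IP lay close together and replicate 4, well below them, was still above every head, so the groups did not overlap. The difference from Rh1 heads was 2.71 and that from CS heads 2.56, with an SD of 0.775 across the IP arrays. The gene pr (purple) encodes 6-pyruvoyltetrahydropterin synthase, an earlier pterin enzyme. It read 1076, 1141 and 1404 in CS heads, 1163, 1303, 946 and 1030.1 in Rh1 heads, and 4568, 3550.1, 4429 and 4826 in the IP. All 4 IP arrays were alike and well above the heads, 1.94 over Rh1 heads and 1.83 over CS heads.

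The gene ras (raspberry) encodes IMP dehydrogenase, which makes the guanine nucleotides that feed pterin synthesis. It read 551, 612 and 655 in CS heads, 812, 829, 664 and 851 in Rh1 heads, and 2390.1, 2285, 2394 and 2901 in the IP. Rh1 heads were above CS heads by 0.36 here, inside the window, and the IP exceeded the nearer group, Rh1 heads, by 1.62. The eye colour gene kar (karmoisin) was dim, at 50.8, 62.0 and 67.4 in CS heads, 56.1, 35.2, 49.2 and 49.8 in Rh1 heads, and 179, 279, 154 and 527 in the IP. Its IP arrays spread more than 3-fold yet stayed above every head. A brighter probe set of kar was only 0.41 above Rh1 heads.

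Other genes of pigment and purine metabolism, looked up because these 4 were members and not for how they moved, went both ways. Pu (GTP cyclohydrolase I), the first pterin enzyme, had mean signals of 1807 in CS heads, 2734 in Rh1 heads and 7122 in the IP, 1.38 above Rh1 heads, so it missed the limit. The drosopterin gene cl was 1.17 above Rh1 heads. The gene bw, a pigment precursor transporter, was 2.23 above Rh1 heads and 2.76 above CS heads and fell outside the head window at 0.53. On the other side, ry (xanthine dehydrogenase) was 1.00 lower in the IP than in Rh1 heads and Prat2, an enzyme of purine synthesis, 1.41 lower. The pterin and purine genes DhpD and bur differed by −0.23 and −0.12 and the ommochrome genes cn and st by 0.20 and 0.75.

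Pigment in the fly eye is made in pigment cells as well as in photoreceptors. Of 11 tested markers of pigment and cone cells, 6 were higher in the IP than in Rh1 heads by limma at an adjusted p under 0.05. Among the 6 is se, which was chosen on this contrast, so its call is no test. Of the other markers 1 was lower and 4 did not pass. The summed signal of the 11 was 20495 to 35048 in the IP, 18380 to 19285 in Rh1 heads and 18032 to 18951 in CS heads, and none of them was at 0. Of all tested probe sets 21.8% were higher and 25.6% lower in this comparison (2131 and 2499). That balance turned with the scaling, to 2678 higher and 2376 lower with median scaling and 2581 and 2515 with quantile scaling. The part of pigment cells in the values of se, pr, ras and kar was not tested.

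Photoreceptor upkeep or cell polarity was the role of 6 members. Polarity keeps the apical membrane, where the rhabdomere forms, apart from the rest of the cell. The gene tadr encodes a transporter-like membrane protein named for the torn and diminished rhabdomeres of its mutant. It read 362, 395 and 421 in CS heads, 278, 281, 262 and 259 in Rh1 heads, and 1340.2, 1562, 1168 and 1460.0 in the IP. All 3 groups were separate, with CS heads above Rh1 heads and the IP above both, by 1.72 over CS heads and 2.22 over Rh1 heads. Fkbp59, an immunophilin that binds the TRPL channel, read 245, 276 and 337 in CS heads, 267, 298, 233 and 242 in Rh1 heads, and 1026, 1308, 1215 and 1609.5 in the IP. The head groups overlapped, and the IP was 2.16 and 2.07 above them.

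The scaffold gene dlg1 (discs large) was the most variable of the 6 in signal, at 584, 653 and 702 in CS heads, 516, 505, 481 and 528 in Rh1 heads, and 5061, 2039, 3084 and 1135 in the IP. Patj, a PDZ scaffold of the Crumbs complex, read 46.3, 71.5 and 84.4 in CS heads, 61.8, 87.4, 57.5 and 81.8 in Rh1 heads, and 262, 192, 289 and 551 in the IP. A further dlg1 probe set went the other way, at −0.86 from Rh1 heads and −0.72 from CS heads. At the probe sets that met the rule, both genes had IP arrays above every head array, with dlg1 highest in IP replicate 1 and Patj in IP replicate 4. The other members of this group were lft (lowfat), which binds the cadherins Fat and Dachsous, at 1.91 over Rh1 heads, and insc (inscuteable), an adaptor that orients spindles in dividing neuroblasts, at 1.88.

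Partners of Patj and dlg1 in apical and junctional scaffolds did not share one direction. Of 7 on the array, 3 were above both heads in the IP, 2 below both and 2 between. Against Rh1 heads crb, the transmembrane protein of the Crumbs complex, was 0.63 higher, sdt 0.19 and par-6 0.74 higher, and l(2)gl 1.36 higher. In the same comparison scrib differed by −0.78 and aPKC by −1.26. These partners and those named below were taken from 12 complexes picked after the members were known, and no test is given for them. Over the 12 complexes 42 of 64 partners (65.6%) were above both heads in the IP and 14 below both, where 44.0% of all single-gene probe sets were above both.

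The cytoskeleton held 10 members, 8 of them on the actin side. The Arp2/3 complex starts branched actin filaments, and 2 of its subunits were members. Arpc1 read 446, 647 and 719.6 in CS heads, 906, 927, 698 and 891 in Rh1 heads, and 2961, 3128, 3050.1 and 3499.5 in the IP. Arpc5 read 388, 413 and 461 in CS heads, 542, 607, 531 and 523 in Rh1 heads, and 2011, 2416, 2253 and 1576 in the IP. The IP arrays of Arpc1 were tight (SD 0.104 on the log2 scale) and those of Arpc5 less so (0.266). For Arpc1 and Arpc5 the IP was 1.85 and 1.83 above Rh1 heads. The Rh1 heads in turn were 0.43 and 0.38 above CS heads. Of the other 4 subunits on the array, Arpc2 was 2.17 above Rh1 heads and missed the head window, Arpc3A was 0.58 and Arpc4 0.42 above, and Arpc3B differed by −0.11.

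The capping protein, a pair of subunits that closes the growing end of actin filaments, had one subunit in the set and one just below it. The member cpa read 315, 349.96 and 384 in CS heads, 469, 497, 449 and 454 in Rh1 heads, and 1978, 1728, 2128 and 2419 in the IP, a difference of 2.06 from Rh1 heads. Its partner cpb was 1.27 above Rh1 heads and 1.32 above CS heads. GMF, which takes branches apart, read 194, 202 and 224 in CS heads, 231, 244, 213 and 228 in Rh1 heads, and 1121, 806, 1342 and 1148 in the IP. Further members here were spir, an actin nucleator, at 2.11 over Rh1 heads (a brighter probe set of it differed by −1.30), the adaptors cindr (1.66) and blow (1.64), the dynein light chain Dlc90F (1.95) and the tubulin cofactor Tbca (1.78).

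Membrane traffic was the role of 15 members, with steps from the Golgi to the late endosome. On the endosome, Usp8, a deubiquitinase that acts on sorted receptors, read 155, 171 and 227 in CS heads, 203, 190.1, 185 and 204 in Rh1 heads, and 1036, 1109.8, 1173 and 1399 in the IP. Its difference was 2.41 from Rh1 heads and 2.53 from CS heads, the highest of the 15. Vps24, a subunit of the ESCRT-III coat that buds vesicles into the endosome, read 251, 271 and 297 in CS heads, 346, 376, 292 and 361 in Rh1 heads, and 1027, 1290.1, 1292 and 1626 in the IP. The IP arrays of both genes lay clear of every head array. Of the other 6 ESCRT-III genes on the array 4 were above both heads, led by Chmp1 (1.45 over Rh1 heads) and shrb (0.83), and 2 were below both (Vps2 at −0.03 and Vps60 at −0.45).

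The endosomal genes mop (myopic), l(2)gd1 and Snx17 were 2.22, 2.00 and 1.84 above Rh1 heads. Their IP values were uneven, as mop shows with 212, 340.1, 221 and 609.9 in the IP against a highest head value of 59.1. TRAPP, a tether of vesicles at the Golgi, had 2 members. Bet5 read 212, 219 and 224 in CS heads, 254, 270.1, 219.8 and 252 in Rh1 heads, and 591, 966, 783 and 1099 in the IP. Trs20 was 1.67 above Rh1 heads. Among 4 partners Trs31 was 1.38 and Trs23 1.14 above Rh1 heads, Trs33 was 0.29 above, and Bet3 differed by −0.02. In the COG complex, another Golgi tether, the member Cog4 was 1.72 above Rh1 heads while its 5 partners on the array ran from −0.11 to 0.35. The other members of the group were the SNARE gene Vti1a (1.67), the golgin genes GCC88 (2.15) and CG9356 (1.86), p47 (1.70), spict (1.94), the proton pump gene VhaM9.7-c (1.63) and the palmitoyltransferase gene Dnz1 (1.78). For p47 IP replicate 4 read 1049 and the other IP arrays 3469 to 4012.

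Chaperones and protein turnover took 13 members. SCCRO4, related to factors that attach NEDD8 to cullins, had the largest difference of the group. It read 217, 243 and 259 in CS heads, 329.5, 309, 302 and 340.1 in Rh1 heads, and 2092, 2206, 2205 and 2945 in the IP. The 3 groups did not overlap, and the IP was 2.75 above Rh1 heads and 3.12 above CS heads. Roc2, a RING subunit of cullin ubiquitin ligases, was 2.00 above Rh1 heads, and CSN7, a subunit of the COP9 signalosome that removes NEDD8 from cullins, 1.64. The 8 other signalosome genes on the array had a median of 0.10, from −0.31 for CSN1b to 1.59 for CSN8, which missed the limit only against CS heads (1.564). Sumo, the small modifier protein, was 1.82 above Rh1 heads, the ligase gene ari-2 1.67, the proteasome subunit gene Sem1 1.60 and cer, an inhibitor of cathepsin-like proteases, 2.21.

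Pfdn5 is a subunit of prefoldin, which hands new actin and tubulin to the folding machinery. It read 222, 244 and 278 in CS heads, 259, 295, 289 and 267 in Rh1 heads, and 889, 1267, 1068 and 1024.5 in the IP. All 5 other prefoldin genes on the array were above both heads in the IP, from 0.39 for mgr to 1.43 for Pfdn6 over Rh1 heads. The small heat shock gene Hsp27 read 248, 257 and 279 in CS heads, 215, 236, 298 and 265 in Rh1 heads, and 892, 838, 1068 and 1222 in the IP. Head groups overlapped and the IP lay 1.85 and 1.81 above them. In the list of heat shock and stress genes, 12 were tested by limma at an adjusted p under 0.05. In the IP 2 were higher than in Rh1 heads, 4 were lower and 6 did not pass. All tested probe sets gave 21.8% higher and 25.6% lower. The 2 higher genes were Hsp27 and Hsp26, the latter left out by name. Both had met the limits on this contrast, so neither call is a test. The Hsp70 partner genes Hsp110 and stv were 1.89 and 1.66 above Rh1 heads, CG1416 (synonym Aha1) 2.26 and CG7945 (synonym BAG2) 1.74.

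In the nucleus 14 members act. Chi (Chip) encodes the cofactor that joins LIM-domain transcription factors. It read 666, 709.96 and 767 in CS heads, 1038, 1091, 938 and 954 in Rh1 heads, and 7087, 7102, 6100.5 and 5729.8 in the IP. MAN1, a protein of the inner nuclear membrane, read 187, 203 and 211 in CS heads, 267, 274, 253 and 278 in Rh1 heads, and 2456, 2270.3, 1964 and 1311 in the IP. For both genes the 3 groups did not overlap and stood in the order CS heads, Rh1 heads, IP, with differences from CS heads of 3.12 and 3.09. Chi and MAN1 are direct neighbours in the genome, with 0 genes between them in the RefSeq table. The only other pair of members about that close was tra2 and CG12868, with 1 gene between. No share over other genes is given for such pairs, and nothing is read from them.

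The lamina gene baf, which encodes a small chromatin protein that binds LEM-domain proteins such as MAN1, read 138, 174 and 192.5 in CS heads, 208, 279, 196 and 262 in Rh1 heads, and 839, 1430.4, 1208 and 1612 in the IP. Of 4 partner genes of the lamina, koi, a SUN-domain protein of the nuclear envelope, was 1.46 above Rh1 heads, and bocks (0.08), Ote (0.17) and LBR (0.01) differed by less. The splicing regulator tra2 was steady across the IP, at 917, 839.97, 969 and 928, against 102, 111 and 120.0 in CS heads and 162, 185, 154 and 165 in Rh1 heads. Its IP was 2.25 above Rh1 heads and 2.73 above CS heads. Of 24 tested RNA-binding and translation regulators, 4 were higher in the IP than in Rh1 heads, 7 lower and 13 did not pass. That is near the shares of all tested probe sets, 21.8% higher and 25.6% lower, and nothing is read from it. The 24 include tra2, which was chosen on this contrast, so its own result is no test.

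The RUNX factor lz (lozenge), needed for eye development, was dim, at 27.2, 49.3 and 56.6 in CS heads, 67.7, 63.3, 56.2 and 81.1 in Rh1 heads, and 301, 165, 329 and 666 in the IP. It was 1.86 above Rh1 heads, with an SD of 0.750 across IP arrays. As lz was under the low-signal filter, it was not tested. Of 21 tested transcription regulators of eye development 2 were higher in the IP than in Rh1 heads by limma, 3 lower and 16 did not pass. Among all tested probe sets it was 21.8% higher and 25.6% lower. Sidpn, a basic helix-loop-helix gene, was steady within each group, at 429, 463 and 527 in CS heads, 356, 393, 367 and 365 in Rh1 heads, and 2893, 2954.5, 2536 and 2681 in the IP. SAGA, a coactivator that modifies histones, had the members e(y)2 (2.07 over Rh1 heads) and Spt3 (1.84), and 5 of its 6 other genes on the array were above both heads, led by Ada3 (1.14). The remaining nuclear members were HP4 (1.98), the nuclear transport factor Ntf-2 (1.89), TfIIA-S (1.76), the RNA polymerase I factor Tif-IA (1.64), Jasper (1.64) and fd19B (1.70).

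Signalling was the field of 5 members. Cdk5, a kinase of neurons after division, read 153, 223 and 247 in CS heads, 241, 276, 217 and 258 in Rh1 heads, and 953, 786, 1138 and 1386 in the IP, 1.95 above Rh1 heads. The gene for its activator, Cdk5alpha, which is no member, was 0.79 higher (SE 0.21) in the IP than in Rh1 heads, with a limma adjusted p of 0.0128. Of 26 tested kinases and phosphatases of neurons, 8 were higher, 7 lower and 11 did not pass. All tested probe sets gave 21.8% higher and 25.6% lower, and nothing is read from the counts. The 26 include Cdk5, which was chosen on this contrast, so its own result is no test. Traf-like read 24.1, 32.3 and 39.9 in CS heads, 31.1, 29.1, 28.4 and 30.7 in Rh1 heads, and 278, 237, 218 and 616 in the IP. The others were the adenylyl cyclase gene Ac13E (1.85 over Rh1 heads), RapGAP1 (1.70) and the Cdc25-type phosphatase gene twe (1.76), best known from meiosis.

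Translation and protein N-termini were the field of 7 members, with the lowest median difference from Rh1 heads of the 9 role groups (1.67). They were mRpL33 (2.18), a mitochondrial ribosomal protein gene, mxt (2.15), whose product binds the cap-binding protein eIF4E, the initiation factor gene eIF3h (1.74), the release factor gene eRF1 (1.67), Dtd (1.66), Ate1 (1.62) and Naa30A (1.60). The 12 other eIF3 genes on the array went both ways, 7 above both heads and 4 below both, from −1.27 for eIF3b to 1.18 for eIF3k over Rh1 heads. In redox metabolism and mitochondrial import, Tim9a, a small chaperone of the space between the mitochondrial membranes, had the largest difference from Rh1 heads of all 126 (2.89). It read 149.6, 160.3 and 168 in CS heads, 144, 183, 121 and 147 in Rh1 heads, and 957, 1369.5, 1149 and 1889.6 in the IP. Its relatives Tim8 and Tim13 differed by 0.03 and −0.03 in the same comparison. GstE3 (2.00), Sesn (1.75) and Trx2 (1.67) completed the group.

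**Figure D4:**
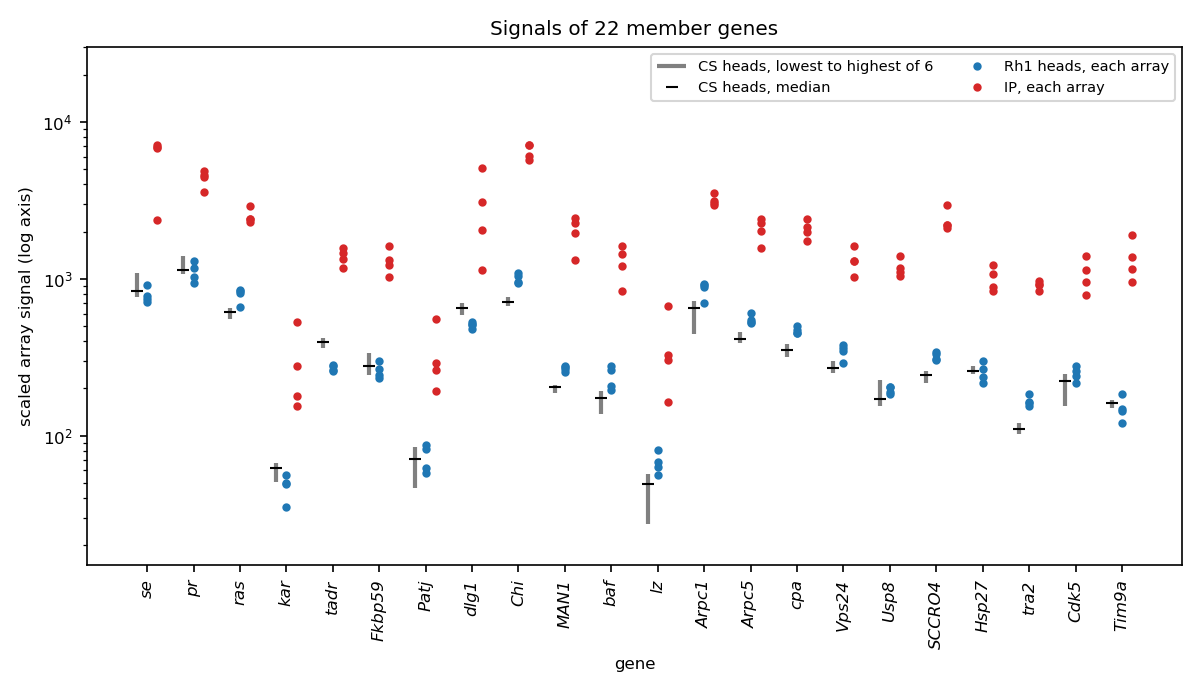
Scaled signal on a log axis for 22 member genes. Grey bars span the 6 CS head arrays with a black dash at their median, blue points are the 4 Rh1 head arrays and red points the 4 IP arrays, and for each gene every red point lies above the blue points and the grey bar.

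The 48 members without an assigned role held many of the largest differences (median 2.08 from Rh1 heads and 2.17 from CS heads). CG17777 had the largest of all from CS heads (3.13) and read 148.5, 162 and 177 in CS heads, 206, 235, 215 and 194 in Rh1 heads, and 2278, 1902, 1566 and 1149 in the IP. The antisense RNA asRNA:CR43468 read 70.9, 83.8 and 94.2 in CS heads, 96.3, 126, 113 and 112 in Rh1 heads, and 778, 1111, 647 and 1436 in the IP. Whether its probes read the antisense RNA or a gene it overlaps was not tested. CG13751 was bright, at 538, 573 and 603 in CS heads, 560.2, 587, 546 and 528 in Rh1 heads, and 2436, 5608, 3489 and 4704 in the IP. IP arrays of all 3 genes were far above the heads, with CG17777 highest in IP replicate 1, asRNA:CR43468 in replicate 4 and CG13751 in replicate 2.

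CG12910 was even across the IP, with 729, 759, 623 and 649 there, 79.9, 78.7, 80.7 and 81.5 in Rh1 heads and 72.7, 75.6 and 80.1 in CS heads. The tetraspanin gene Tsp42Eo was not, with 3367, 2398.5, 2496.5 and 593 in the IP against a highest head value of 333. CG43798 had the lowest mean signal of the members in CS heads, at 6.29, 8.67 and 12.2 in CS heads and 20.3, 24.9, 25.7 and 31.3 in Rh1 heads, and read 129, 154, 333 and 728 in the IP. Its head values lie near the added constant of 32, so its differences of 2.40 and 2.88 understate the ratio of signals. The same holds between the heads, where mean signals of 9.22 in CS heads and 25.6 in Rh1 heads gave a difference of only 0.48. For insc, means of 25.1 and 47.6 also gave 0.48. Such dim genes are steady in the heads only on the scale with the constant. CG6495 (2.51 over Rh1 heads), CG42365 (2.49) and CG5290 (2.47) were the other genes without a role among the 15 with the largest smaller difference. CG13364, with the highest IP signal of the members, read 1850.3, 1992 and 2198 in CS heads, 1742, 1943, 1528 and 1582 in Rh1 heads, and 4955, 8870.3, 6257 and 8155 in the IP.

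A second reading of the same gene was available where the array carried further probe sets. Of the 126 members 109 had 1 single-gene probe set, and the other 17 had 22 more. None of the 22 passed the 2.99-fold limit over both heads. Of these, 12 were above both head groups in the IP and 7 below both, and their median was 0.18 over either group. The nearest were those of CG3625 (1.30 over Rh1 heads and 2.13 over CS heads), Arpc1 (1.26 and 1.70) and eIF3h (1.24 and 1.03). Among those lower in the IP than in Rh1 heads were further probe sets of dlg1 (−0.86), stv (−0.60), Snx17 (−0.32), and 1 each of spir (−1.30) and RapGAP1 (−0.98). Of the 22, 7 were brighter than the probe set that met the rule. For kar the brighter one averaged 692 in CS heads, 945 in Rh1 heads and 1403 in the IP, 0.41 above Rh1 heads, against 1.86 for the member probe set. For mop the brighter one averaged 767, 717 and 956, 0.40 above Rh1 heads, against 2.22. With each gene's probe sets averaged first, 16 of the 17 genes no longer met the rule. The other 109 members have a single probe set and could not be checked in this way.

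**Figure D5:**
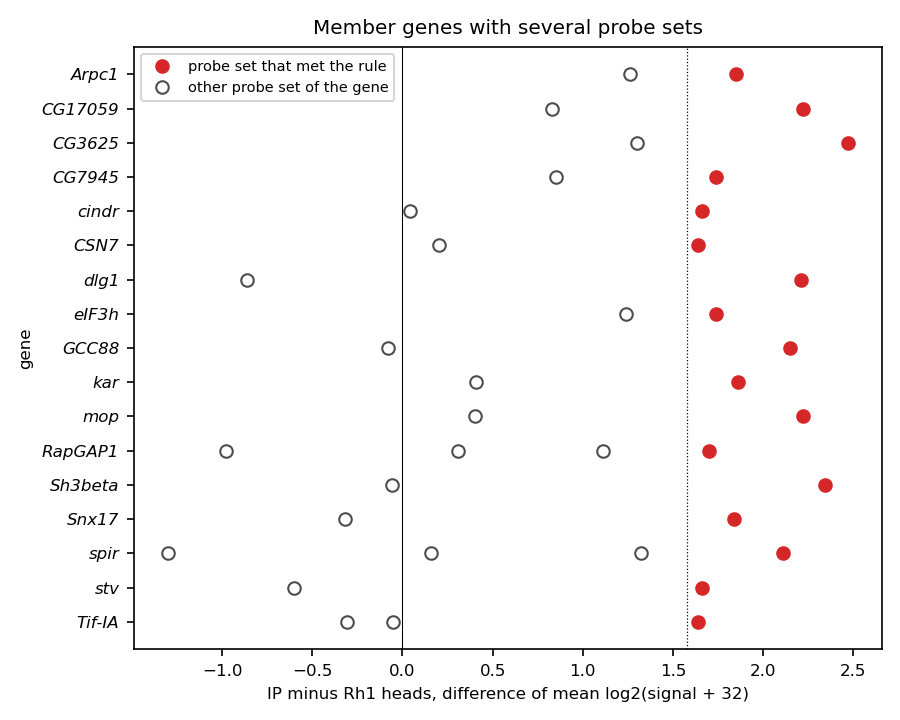
The 17 member genes with several single-gene probe sets, with IP minus Rh1 heads as a difference of mean log2(signal + 32) on the x axis. Filled points are the probe set that met the rule and open points the 22 others, all of which lie left of the dotted line that marks the 2.99-fold limit.

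Marker lists of cell types place the IP beside the members. None of the 19 tested photoreceptor markers is a member, but the rule left out prom, Pph13, eya and gl of this list by name. Of these, eya and gl had met every limit, with differences between Rh1 and CS heads of 0.11 and −0.24. The absence of markers among the members is therefore no result. Of the 19 markers, 13 were higher in the IP than in Rh1 heads, 3 lower and 3 did not pass. In that comparison 21.8% of all tested probe sets were higher and 25.6% lower. Against CS heads 7 markers were higher, 6 lower and 6 did not pass. There 26.5% of all tested probe sets were higher and 34.4% lower. Calls of eya and gl in these comparisons are no test, as both had met the limits on them. In Rh1 heads 14 of the 19 were lower than in CS heads and 2 higher, against 29.7% lower and 24.4% higher of all tested. Their summed signal was 82206 to 87490 in CS heads, 42367 to 44188 in Rh1 heads and 47701 to 93805 in the IP. Most photoreceptor markers thus fell in Rh1 heads, where the members were held to the 0.5 window by the rule. For example trpl, a light-gated channel, was 2.74 higher (SE 0.14) in the IP than in Rh1 heads (limma adjusted p of 6.98e-07) and differed from CS heads by −0.51 (SE 0.13, adjusted p of 0.00441).

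Markers of other cells were mostly lower in the IP than in Rh1 heads. Of tested muscle markers 11 of 12 were lower, of fat body markers 8 of 12 and of other neurons 7 of 8. Of neurons in general it was 5 of 7, of hemocytes 4 of 5 and of the antenna 3 of 6. Among all tested probe sets 25.6% were lower in this comparison and 21.8% higher. Of the fat body markers 1 was higher, and of the hemocyte markers 1. Glial markers were mixed, with 3 of 12 higher and 5 lower. The summed muscle signal was 7838.5 to 9744 in the IP against 40766 to 44975 in Rh1 heads, and the summed glial signal 11068 to 16279 against 17826 to 19945. No marker of any list was at 0 in any group. In lists without a member, 1 of 32 tested genes of axon guidance and adhesion was higher in the IP than in Rh1 heads and 13 lower. Of 20 EGFR, Notch and Hedgehog genes 4 were higher and 6 lower, near the shares of all tested probe sets. Of 29 chromatin genes it was 10 and 6, and of 35 transporters and channels 3 and 21.

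The set of genes depended on the arrays used. Without IP replicates 2 and 4 the rule chose 113 genes, 95 of them members. Over the 126 members the medians without these arrays were 1.88 from Rh1 heads and 1.95 from CS heads. Without IP replicate 4 alone it chose 109 with 97 members, and without IP replicate 1 it chose 142 with 120. The median difference of the 126 members from heads was 1.85, 2.05, 1.96 and 2.29 in IP replicates 1 to 4, and 99 to 112 of them were past the 2.99-fold limit in a single array.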

How the data were processed

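The authors deposited linear intensity values, 1 for each probe set, for 14 single-colour Affymetrix arrays. How probes were summarised and to what target arrays were scaled is not given in the sources used here. Groups came from the labels. IP replicates were numbered in accession order.

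Each array was scaled to the common mean of the 2% trimmed means (310.2 to 373.4 before scaling, medians 180.1 to 201.8), and log2(signal + 32) was averaged by group. The members are the genes whose differences met the stated limits, so no p-value is given for them. Their number of arrays limits the precision. Of 14010 probe sets, 44 were controls, 12442 had 1 gene in the platform table, 327 several and 1197 none. Among the 12442, 12393 matched RefSeq (Release 6), used for names and neighbours. No sequences or coordinates are printed.

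Gene lists were tested with limma 3.58.1 in R 4.3.3 (lmFit, eBayes with trend, each comparison on its own arrays). The fit covered the 9776 of 13966 non-control probe sets whose mean reached the 30th percentile, with Benjamini-Hochberg adjustment over all of them. These can include several probe sets of a gene, and a gene of a list was read at its brightest single-gene probe set. The fit was tested on simulated data. Tables used Python 3.11.15. Named genes are the 15 with the largest smaller difference, the 5 brightest in the IP, those nearest each limit and members of the lists, further members being named by role. Members, lists and rule were chosen with earlier results of these data known, and roles, complexes and pigment genes after the members were seen. Alternatives covered the constant, scaling, filter, probe sets and each array.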

Additional observations from a re-analysis of the deposited data

Results flagged for a closer look

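In 4 cases a reading stood apart from the other arrays of their group among 84 groups of values examined (27 named members and the members' median, in each of the 3 groups). The gap to the nearest other array was set against the whole range, with Dixon's critical value as the limit, and chance alone marks about 1 in 20 groups. In IP replicate 4 the signal of SCCRO4 was 2945 against 2092 to 2206 in the other IP arrays, a gap of 0.845 of the range. In the same array CG42365 read 787 against 499 to 525 (0.893). There se read 2357 against 6837 to 7089 (0.967), the only one of the 3 that was low. In the CS heads, replicate 5 read 474 for Jasper against 180.1 to 224 in the other 5 (0.783). IP replicate 4 is also an array with a low 5′ to 3′ control ratio, whose part in these 3 values was not tested.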

How the results depend on the processing

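The number of genes that met the rule was 95 with a constant of 64 (92 of them members), 141 with a constant of 16 (120), 139 with quantile scaling and 132 with median scaling (126 members each), and 116 with the 30th percentile filter. Leaving out each array in turn gave 109 to 142. The median member difference from CS heads moved from 2.05 to 1.88 with a constant of 64, since a larger constant shrinks differences of dim genes, and ran from 1.99 to 2.09 with an array left out, that from Rh1 heads from 1.93 to 1.97 and that between heads from 0.08 to 0.12. Limma calls were 4630 for IP versus Rh1 heads (3784 to 5372 with an array left out, 5470 without IP replicates 2 and 4, 5608 without the filter), 5952 for IP versus CS heads (5580 to 6534) and 5293 for Rh1 versus CS heads (4602 to 5351). With the replicate block the last was 4699. Same-numbered head arrays correlated at −0.066, −0.055, −0.104 and 0.115. These values show no pairing by number, though a weak one could go unseen. IP numbers are in accession order. For single named genes 1007 values under alternatives moved by less than the replicate SD and 19 by more, none with a change of sign. The 1007 include differences that the left-out head array did not enter, which could not move. Leaving out a single IP array could not shift the IP mean past that SD either. The count is therefore no measure of how stable the values are. Dim signals near the constant limit what the smallest differences can show.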
